A study of Mus musculus with 11 samples.

Results

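The regions described here are the distal Rbpj sites of a mouse leukaemia line that lie in H3K4me1 chromatin and carry no listed peak of the other precipitated factors. Rbpj (also called CSL) is the DNA-binding protein of the Notch pathway. There were 6097 such sites among the 20993 Rbpj peaks of the series. They were chosen by measured values, namely the deposited peak and segment lists. A site had its centre over 1 kb from both ends of every RefSeq protein-coding gene, overlapped an H3K4me1 segment by at least 1 bp, overlapped no Polycomb-like H3K27 segment, and overlapped no peak of HA-Zmiz1, Flag-Zmiz1 or ICN1 in either line. Of all Rbpj peaks, 11695 were distal by this measure, 9045 of these lay in H3K4me1, and 8701 of these lay outside the Polycomb-like segments. The last step took out the sites with another factor, mostly HA-Zmiz1, which had a peak at 2558 of the 8701.

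The study precipitated chromatin (ChIP-seq) from 8946 cells, a mouse line of T-lymphoblastic leukaemia, after transduction with epitope-tagged Zmiz1 (vector marker NGFR) and an activated Notch1 (vector marker GFP) and sorting of cells that carried both markers. Rbpj, the 4 histone marks, Flag-Zmiz1, ICN1 and an input came from the line with Flag-Zmiz1 and the Notch1 construct L1601PDP, called the Flag line here. HA-Zmiz1, a second ICN1 library and a second input came from the line with HA-Zmiz1 and the construct DEGFDLNRDP, called the HA line. Zmiz1 is a PIAS-like transcriptional coactivator, and ICN1 is the cleaved, active intracellular part of Notch1. All groups thus carried a forced Zmiz1 and an activated Notch1, the cells were grown in RPMI medium with serum, and no untransduced cells were profiled in the libraries used here. Factor chromatin was fixed with DSG and formaldehyde, and histone chromatin with formaldehyde alone. Each of the 11 libraries was the only one of its target and line, so there was no replicate spread to read a difference by, and differences between classes of sites were not tested. Intervals given below are exact (Clopper-Pearson) 95% intervals of a share. They cover counting error only and treat neighbouring sites as independent, which they are not.

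The Rbpj list rested on 19048270 filtered tags, and the 4 lists used to leave sites out on 13450671 to 15429394. Those lists were much shorter, with 4984 peaks for HA-Zmiz1, 581 for Flag-Zmiz1, 414 for ICN1 in the HA line and 82 for ICN1 in the Flag line. A site without another factor is therefore a site without a listed peak, and HA-Zmiz1 was measured in a different line from Rbpj. The H3K27 labels needed a check. The library labelled H3K27me3 had a segment over an end of 19 of 20 housekeeping genes and of 1 of 30 developmental regulators. The library labelled H3K27ac had one at 0 of 20 housekeeping genes and at 25 of 30 developmental regulators. The first is called acetylation-like and the second Polycomb-like here, and the selection of sites used the second as the mark to leave out.

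As background, Rbpj binds DNA with or without Notch. With ICN1 and a Mastermind protein it recruits acetyltransferases such as Ep300 and Kat2b. Without them it can hold corepressors such as Spen, Kdm5a or L3mbtl3. H3K4me1 marks enhancers and the flanks of promoters, H3K4me3 marks promoters most strongly, H3K27 acetylation marks active elements of both kinds, and H3K27me3 is the mark laid down by Polycomb complexes.

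Base sequence could be shown only where a site overlapped a RefSeq promoter window, that is 250 bases before to 50 bases after an annotated transcript start in GRCm38.p6 (mm10). This was so for 315 of the 6097 sites (5.17%, interval 4.62 to 5.75), against a background of 30.1% of all Rbpj peaks. The rule itself removes most promoters. What was left were starts inside the span of a coding gene or starts of noncoding genes: of the 345 windows touched, 221 belonged to protein-coding and 124 to long noncoding RNA genes. Of these, 5 sites from the top by −log10 p are shown because they are among the strongest Rbpj-only sites whose bases were at hand. Each line gives the part of the peak within the 250 bases before the start, 5′ to 3′ on the strand of the gene. The Rbpj summit was inside this part at Zfp580 and Bbc3. It was outside at Atp5d, Taok2 and Dazap1, at 75, 120 and -257 bases from the start, where minus means before it. The letters shown for these 3 are thus not those under the summit. Capitals mark the Rbpj core TGGGAA or its reverse complement TTCCCA.
Zfp580, chr7:5051428-5051531, plus strand: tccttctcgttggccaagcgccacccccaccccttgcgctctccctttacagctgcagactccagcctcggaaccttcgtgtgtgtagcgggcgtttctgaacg
Atp5d, chr10:80142212-80142274, plus strand: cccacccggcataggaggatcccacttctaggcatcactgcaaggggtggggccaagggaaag
Bbc3, chr7:16309438-16309582, plus strand: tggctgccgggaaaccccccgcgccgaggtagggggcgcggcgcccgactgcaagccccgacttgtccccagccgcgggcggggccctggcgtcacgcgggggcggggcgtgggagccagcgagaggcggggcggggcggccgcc
Taok2, chr7:126884968-126885071, minus strand: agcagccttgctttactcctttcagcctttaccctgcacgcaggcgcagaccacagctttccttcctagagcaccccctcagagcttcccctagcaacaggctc
Dazap1, chr10:80264764-80265013, plus strand: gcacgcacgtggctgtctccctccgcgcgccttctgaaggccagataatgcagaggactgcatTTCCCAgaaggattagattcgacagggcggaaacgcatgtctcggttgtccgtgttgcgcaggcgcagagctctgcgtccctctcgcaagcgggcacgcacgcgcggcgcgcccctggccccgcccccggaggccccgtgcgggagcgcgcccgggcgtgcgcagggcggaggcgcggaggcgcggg

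Of the 6 strongest such stretches 2 held the core, namely the one at Dazap1, which encodes an RNA-binding protein, and one that is not shown here and had a higher Rbpj fold than Dazap1. The Rbpj folds at these 5 sites were 27.4 at Zfp580, 22.8 at Atp5d, 14.8 at Bbc3, 12.3 at Taok2 and 10.4 at Dazap1. All 5 lay in both H3K4me3 and acetylation-like segments. The core was present in 17.1% (interval 12.95 to 22.01) of the 286 distinct stretches of at least 40 bp, whose median length was 110.5 bp. The share in like-length stretches at other Rbpj peaks or in all windows was not computed. Neither this share nor the count of 2 of 6 thus has a background beside it.

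Whole windows of 300 bases were also searched on both strands for 6 short motifs. The Rbpj core TGGGAA was in 29.3% of the 345 windows touched by a Rbpj-only distal site (interval 24.5 to 34.4), in 22.4% of the 5670 windows touched by Rbpj peaks at gene ends and in 25.6% of all 32851 windows. The E-box CANNTG was in 73.3%, 58.8% and 72.3% of the same sets, and GATAA was in 16.8%, 12.4% and 25.4%. For the Runx core TGTGGT the shares were 13.3%, 10.8% and 16.8%. The Ets core GGAAG, which can overlap the Rbpj core, was in 78.6%, 77.3% and 71.4%, and CACCC was in 64.9%, 62.5% and 57.5%. The interval for the Rbpj core in the windows touched by these sites thus included its share over all windows. A match is a run of letters and not a shown binding site.

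The Rbpj-only distal sites had a slightly lower median Rbpj fold than the other classes of Rbpj peak. Fold here is the enrichment over the local input that MACS gave each peak. The median Rbpj fold was 6.12 over the 6097 sites, 6.62 over the 8459 Rbpj peaks at coding gene ends without another factor, and 6.78 over the 2324 distal sites in H3K4me1 that carried HA-Zmiz1 but no ICN1. It was 6.30 over the 2174 distal Rbpj-only peaks outside H3K4me1 and Polycomb-like segments, and 6.47 over all Rbpj peaks. The median peak width was 107 bp, against 140 bp at gene ends, 172 bp at distal HA-Zmiz1 sites and 104 bp at the distal Rbpj-only peaks without H3K4me1. The 4 curves of Rbpj fold run close together, and the largest fold among the Rbpj-only distal sites was 28.2.

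**Figure D1:**
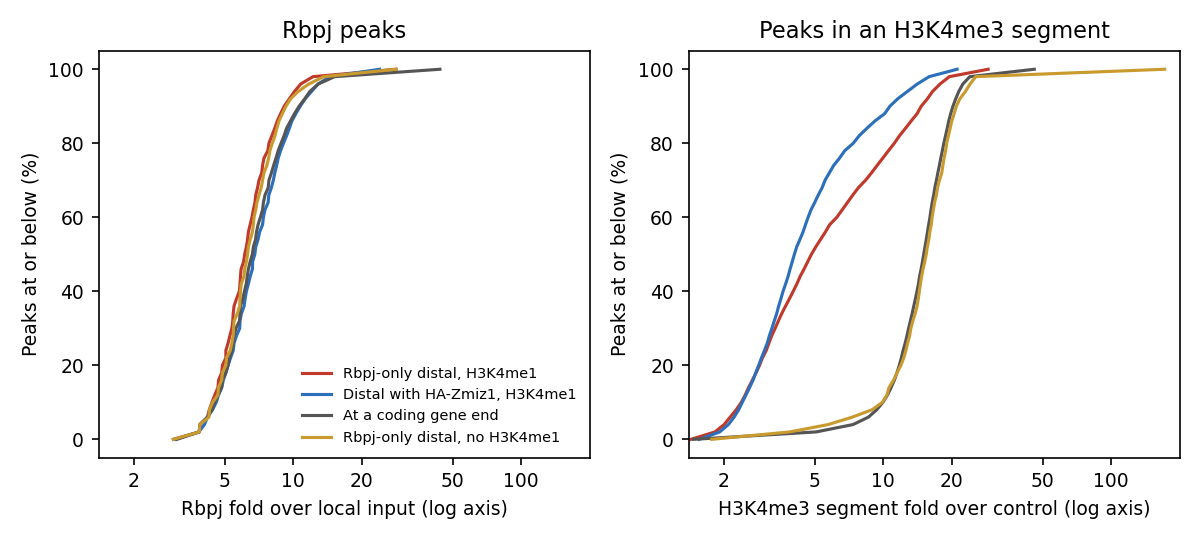
Cumulative share of peaks (vertical axis, %) by Rbpj fold over local input (left, all peaks of each class) and by fold of the overlapped H3K4me3 segment over its control (right, peaks in such a segment), both on log axes. The classes nearly coincide for Rbpj, with medians from 6.12 to 6.78, and separate for H3K4me3, with medians of 4.84 and 4.08 for the distal H3K4me1 classes and 15.1 and 15.5 for the others.

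Most of these sites carried other marks besides the H3K4me1 that defined them. An H3K4me3 segment covered 81.9% (4993 of 6097, interval 80.9 to 82.9), which is below the background of 87.3% of all Rbpj peaks. An acetylation-like segment covered 87.2% (5314 sites, interval 86.3 to 88.0), close to the background of 86.2%. The distal HA-Zmiz1 sites were covered by H3K4me3 at 96.6% and by the acetylation-like mark at 96.6%, and the gene-end peaks at 98.0% and 94.3%. Without H3K4me1, distal Rbpj-only peaks were covered at 56.3% and 55.2%. The intervals are no test of these differences, as 31.4% of the Rbpj-only distal sites shared an H3K4me1 segment with another such site.

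**Figure D2:**
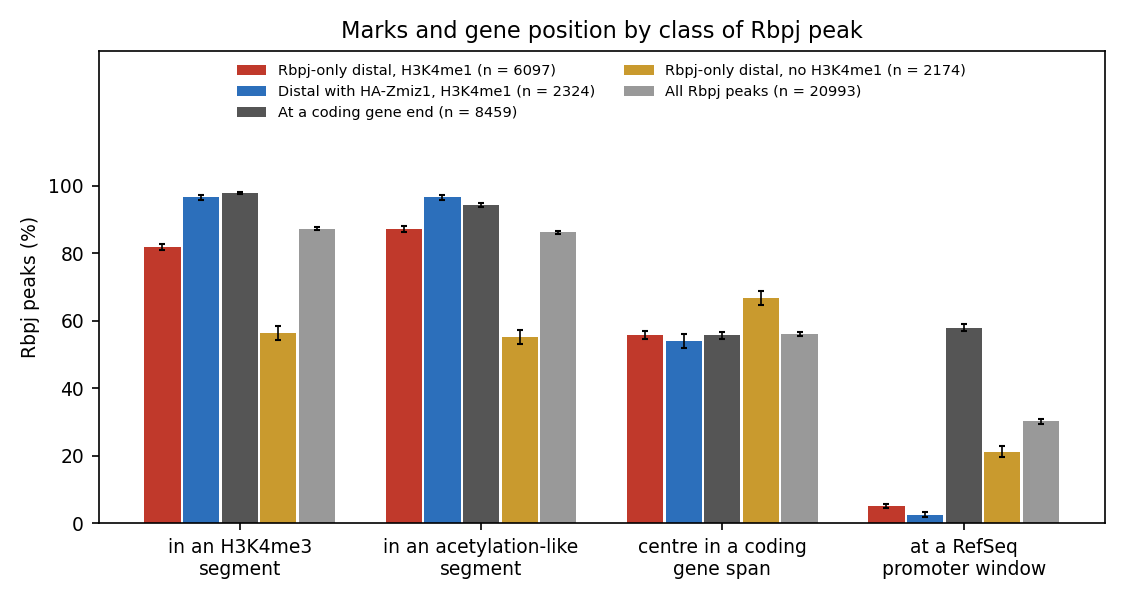
Share of Rbpj peaks (vertical axis, %) in an H3K4me3 segment, in an acetylation-like segment, inside a coding gene span or at a RefSeq promoter window, for 5 sets of peaks, with exact 95% intervals of counting error. The Rbpj-only distal sites in H3K4me1 stand at 81.9% and 87.2% for the marks, below the distal HA-Zmiz1 sites and above the distal sites without H3K4me1.

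By combination, 4677 sites (76.7%) had both marks, 637 (10.4%) had the acetylation-like mark without H3K4me3, 316 (5.18%) had H3K4me3 alone and 467 (7.66%) had neither. The median Rbpj fold hardly moved with the combination, at 6.13, 6.01, 6.26 and 6.23 in that order. What did move was the H3K4me1 segment: its median width was 8.2 kb with both marks and 3.2 kb with neither, and its median fold over control 3.28 and 2.30.

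The H3K4me3 at most of these sites was weaker than is usual at gene ends, though its median was about that of all H3K4me3 segments. Where several segments met a peak, the one with the highest fold was read. The median H3K4me3 segment fold was 4.84 (quartiles 3.11 and 9.62), against 15.1 at gene ends, 4.08 at distal HA-Zmiz1 sites and 15.5 at the distal sites without H3K4me1. Of the 4993 sites in H3K4me3, 718 (14.4%) lay in a segment that reached a coding gene end, with a median fold of 13.2. The other 4275 had a median of 4.29. The acetylation-like segments differed less, with median folds of 4.08 at the Rbpj-only distal sites, 4.43 at gene ends and 4.81 at distal HA-Zmiz1 sites.

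A minority had H3K4me3 at or above the lower quartile of the gene-end peaks. The lower quartile of H3K4me3 fold among gene-end peaks in such segments was 12.4, and 826 of the Rbpj-only distal sites (13.5%, interval 12.7 to 14.4) reached it, against 6.33% of distal HA-Zmiz1 sites and 43.7% of distal sites without H3K4me1. These 826 had a median distance of 2.90 kb to a coding gene end, against 18.6 kb for the other 5271, and 71.4% lay inside a gene span, against 53.2%. For 417 of the 826 the H3K4me3 segment reached no coding gene end, and 290 of these did not touch a RefSeq promoter window either. Their Rbpj fold, with a median of 6.23 against 6.11, was about that of the other sites.

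The H3K4me1 segments themselves were broad. A Rbpj-only distal site lay in a segment with a median width of 6.8 kb and a median fold of 3.10, while the 46130 H3K4me1 segments of the list had medians of 2.8 kb and 2.43. A wide segment meets a peak more often, so this contrast cannot be told apart from width itself. The segments under distal HA-Zmiz1 sites were wider still, with a median of 12.4 kb and a fold of 3.56. The summit lay in the middle 50% of its segment for 64.8% of Rbpj-only distal sites (interval 63.6 to 66.0) and for 71.4% of distal HA-Zmiz1 sites (interval 69.5 to 73.2).

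Because wide H3K4me1 segments also met other marks more often, the shares were read within width bins. In H3K4me1 segments up to 3 kb wide, H3K4me3 covered 62.3% of 1057 Rbpj-only distal sites and 84.0% of 75 distal HA-Zmiz1 sites. From 3 to 10 kb the shares were 81.7% of 2910 and 94.8% of 863, and over 10 kb they were 91.9% of 2130 and 98.4% of 1386. The acetylation-like shares in the same bins were 65.3%, 87.0% and 98.2% for the Rbpj-only distal sites and 80.0%, 93.5% and 99.4% for the HA-Zmiz1 sites. Both marks thus became more frequent with width in both classes, and the HA-Zmiz1 sites stood higher in each bin, by least for the acetylation-like mark over 10 kb.

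**Figure D3:**
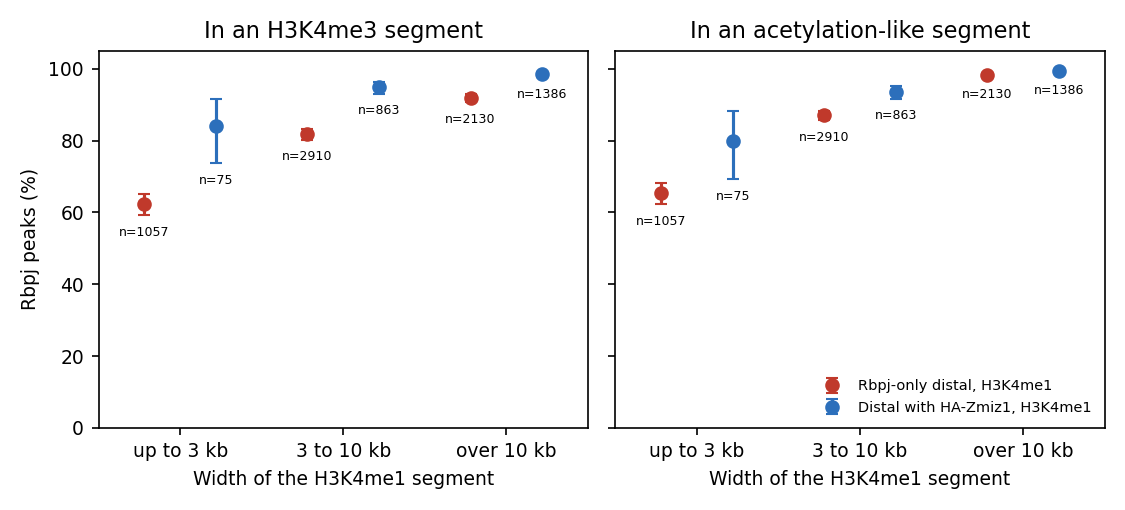
Share of peaks (vertical axis, %) in an H3K4me3 segment (left) and in an acetylation-like segment (right) by width of the H3K4me1 segment, for Rbpj-only distal sites and distal HA-Zmiz1 sites, with exact 95% intervals of counting error and the number of peaks in each bin. The shares rise with width in both classes, from 62.3% to 91.9% for H3K4me3 at the Rbpj-only distal sites.

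Rbpj strength made little difference to the marks. In 5 equal bins of Rbpj fold, from up to 4.89 to over 7.82, H3K4me3 covered 80.0%, 82.1%, 82.8%, 80.8% and 83.9% of the Rbpj-only distal sites, and the acetylation-like mark 87.1%, 88.6%, 88.0%, 84.9% and 87.2%. The distal HA-Zmiz1 sites in the same ranges of fold stood at 94.5% to 97.3% for H3K4me3 and at 95.7% to 97.4% for the acetylation-like mark.

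Distance from genes made as little difference. The median distance to a coding gene end was 15.3 kb, with quartiles of 5.16 and 43.9 kb. Of the sites, 1491 lay 1 to 5 kb from a gene end, 1928 lay 5 to 20 kb, 1331 lay 20 to 50 kb, 1145 lay 50 to 200 kb and 202 farther. H3K4me3 covered 83.8%, 80.5%, 81.1%, 82.8% and 81.2% of them in this order, and the acetylation-like mark 87.5%, 85.1%, 88.1%, 88.6% and 90.6%. A coding gene span held the centre of 55.7% of the sites (3396, interval 54.4 to 57.0), against a background of 56.1% of all Rbpj peaks. The gene table gives no exons, so introns and exons were not separated.

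The 1 kb limit cut through a continuous range of distances. Just inside were sites at Wars2 (1001 bp, Rbpj fold 7.18), Plekhb1 (1004 bp, fold 4.28) and Gadd45g (1004 bp, fold 14.6). Just outside were peaks at Aurkaip1 (996 bp, fold 4.15), Letm2 (996 bp, fold 3.87) and Rps10 (993.5 bp, fold 5.86). The sites at Wars2 and Gadd45g and the peak at Letm2 lay in H3K4me3 segments of fold 12.4, 15.1 and 13.8.

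Of the other factors, HA-Zmiz1 was the one most often in the neighbourhood, but it also had the longest list. It had 4984 peaks, against 581 for Flag-Zmiz1, 414 for ICN1 in the HA line and 82 for ICN1 in the Flag line. The order of the factors cannot be told apart from list length, and the rule had already removed sites that overlapped these peaks. HA-Zmiz1 had a summit within 5 kb of 1248 Rbpj-only distal sites (20.5%, interval 19.5 to 21.5) and within 0.5 kb of 350 (5.74%). The same distances held 9.59% and 2.74% of the gene-end peaks, and 9.38% and 1.79% of the distal sites without H3K4me1. For 1521 sites (24.9%) the H3K4me1 segment also held an HA-Zmiz1 peak. Those segments had a median width of 17.0 kb against 5.4 kb for the rest, and their sites a median Rbpj fold of 5.86 against 6.23. The acetylation-like mark covered 98.2% of the sites that shared a segment with HA-Zmiz1 and 83.5% of the others. This contrast cannot be told apart from segment width. Over all Rbpj-only distal sites in H3K4me1 segments over 10 kb wide the share was also 98.2%. ICN1 of the HA line was rarer, with a summit within 5 kb of 157 sites (2.58%) and in the H3K4me1 segment of 251. In the Flag line, from which the Rbpj library came, Flag-Zmiz1 had a summit within 5 kb of 22 sites (0.361%) and ICN1 of 10 (0.164%).

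Several sites could share a segment. The 6097 sites fell in 4985 H3K4me1 segments, of which 4181 held 1 site, 606 held 2, 133 held 3 and 1 held 9. Neighbouring sites in a segment were a median of 1.94 kb apart. The segment with 9 sites, chr15:74887001-74939800, had its sites 15.2 to 35.4 kb from Ly6e or Ly6m, genes of the Ly6 family of surface proteins. The sites had modest Rbpj folds of 4.01 to 6.62, all 9 lay in H3K4me3 and in acetylation-like segments, and the segment also held 7 HA-Zmiz1 peaks.

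The next 4 segments held 7 sites each. The widest, chr5:118561801-118682400, spanned 120.6 kb inside Med13l, a subunit gene of the Mediator kinase module, with Rbpj folds of 4.62 to 9.34. The segment chr11:117271201-117337200 lay inside Septin9, a cytoskeletal GTPase gene, with folds of 3.59 to 8.67. The sites of the segment chr15:36408801-36462600 lay 17.5 to 49.9 kb from Ankrd46, with folds of 5.06 to 8.64. The segment chr8:122444001-122475400 held the genes Rnf166 and Snai3, the latter a zinc-finger repressor of the Snail family, and its sites were 1.125 to 4.756 kb from a gene end. Input in H3K4me1 segments was higher on chromosome 15 than on the other autosomes, at 32.8 control reads per kb against 22.8 to 24.1. Its part in the counts at Ly6e, Ly6m and Ankrd46 was not tested. The same holds for the sites of Galnt6, Mfng and Il7r described below, which are also on chromosome 15.

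The strongest sites are described next, by −log10 p. They lead the list by the same values that made the peaks, so this is a description. The strongest of all lay inside the Rbpj gene itself, at chr5:53588890-53589570, 33.5 kb from an end of the gene. It had a pileup of 101, a −log10 p of 120.5 and a fold of 28.2, in an H3K4me3 segment of fold 14.7 and an acetylation-like segment of fold 4.08. A second site stood beside it on the side of the lower end, with a fold of 4.62, and the other 2 sites within the gene had folds of 6.01 and 5.25. The nearest HA-Zmiz1 summit was 506.2 kb away, against a median of 39.8 kb over all Rbpj-only distal sites.

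A second gene of the Notch nuclear machinery was also among the strongest. Spen encodes a large RNA-binding corepressor that Rbpj can hold at target genes. The site chr4:141546556-141547211 lay 8.24 kb beyond its span, with a Rbpj fold of 21.9 in an H3K4me3 segment of fold 18.7. A site inside Spen had a fold of 7.62, and 2 sites beyond it, nearest to Fblim1, had folds of 5.38 and 5.45. All 4 lay in H3K4me3 segments of fold 16.8 to 18.7.

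Not all strong sites were in marked chromatin. The second strongest, chr9:61698045-61698266, lay 215.1 kb from the ribosomal protein gene Rplp1 with a fold of 27.5. It stood in an H3K4me1 segment of fold 1.65 and in neither H3K4me3 nor acetylation-like segments. The site nearest to Utp15, a ribosome biogenesis gene, had a fold of 18.4 and lacked H3K4me3 only. The other 13 of the 15 strongest lay in both marks.

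Those 13 included sites inside Hdac4 (fold 23.3), a class IIa histone deacetylase, and inside Galnt6 (fold 19.1), an enzyme of mucin-type glycosylation. Sites outside genes were nearest to Lpin1 (fold 26.1), a phosphatidate phosphatase, Cul3 (fold 23.7), a scaffold of ubiquitin ligases, and Rps6ka1 (fold 22.4), a kinase downstream of ERK. The site at Atp5d shown above was nearest, among coding gene ends, to Cbarp. Others were nearest to Zfp580, Sox4, Spen, Rbpj, the predicted gene Gm46320 (fold 21.9, at 130.3 kb) and Sox6 (fold 22.6, at 253.9 kb).

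The sites were spread over many genes. They had 3492 different nearest coding genes, of which 2186 were nearest to 1 site and 165 to 5 or more. Sox4, an HMG-box transcription factor of lymphocyte progenitors, was nearest to 17 sites, the farthest at 377.0 kb. The site 4.30 kb beyond it, at chr13:28957838-28958152, had a Rbpj fold of 21.0. Its other 16 sites ran from 3.88 to 8.72, and 12 of the 17 lay more than 100 kb below the gene. Of the 17, 16 lay in H3K4me3 and 17 in acetylation-like segments. Arid1b, a subunit gene of the BAF chromatin remodeller, was nearest to 12 sites with folds of 3.59 to 8.56.

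Ets1, an Ets-family transcription factor of lymphocytes, was nearest to 11 sites with Rbpj folds of 4.15 to 9.93, all in both marks. Bcl11b, a zinc-finger factor required for T-lineage commitment, was nearest to 9 sites: 5 inside the gene with folds of 5.84 to 9.28, and 4 between 97.6 and 301.2 kb below it with folds of 5.27 to 9.06. The count was also 9 for Ankrd46, for Nfia, a nuclear factor I gene at which 5 of 9 sites were in acetylation-like segments, and for Gm52008, whose sites reached a fold of 18.9. Septin9 was nearest to 11 sites and Igf1r to 10.

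**Figure D4:**
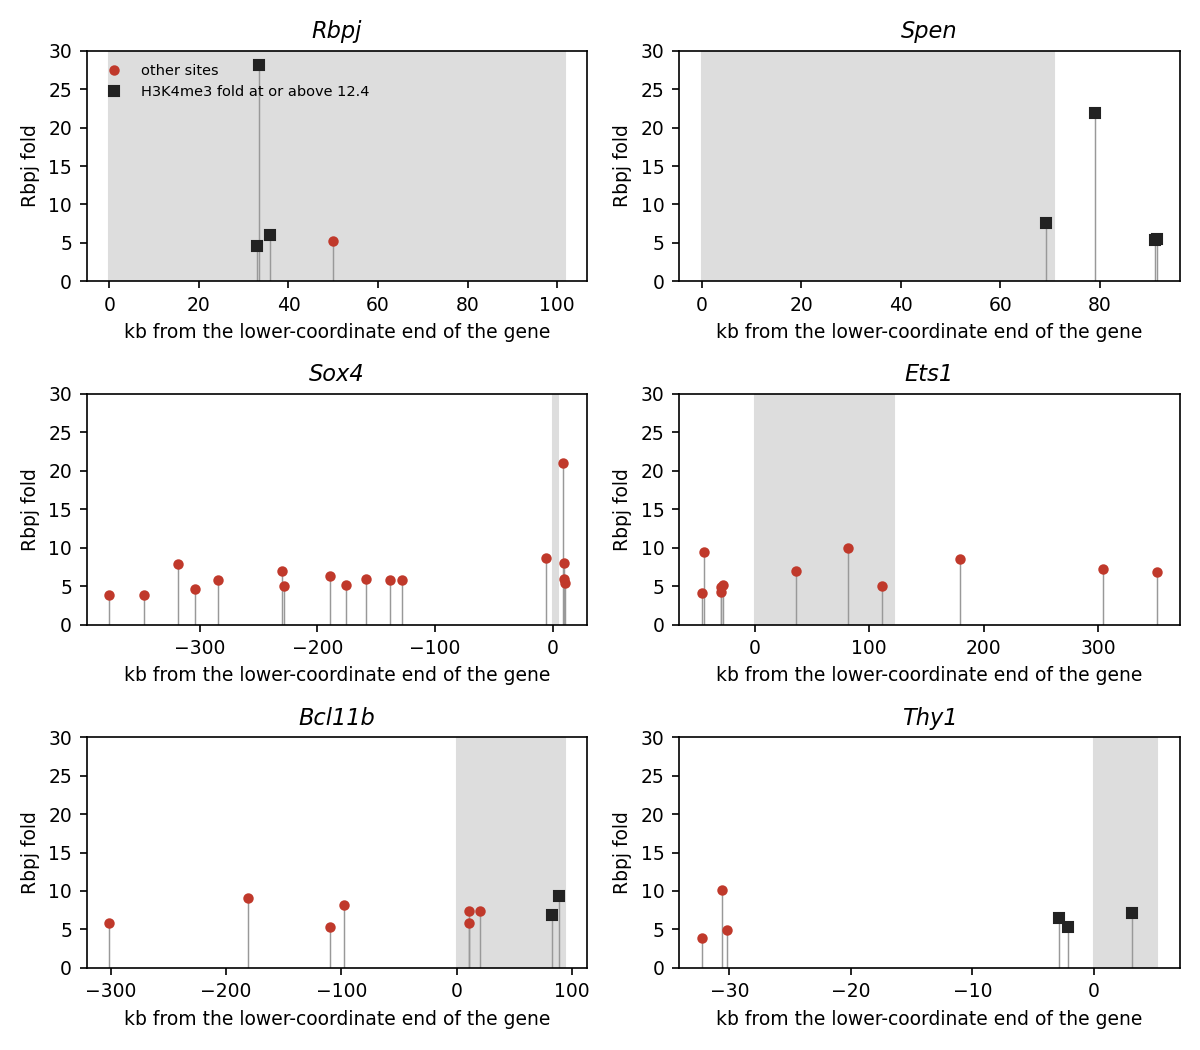
Rbpj-only distal sites around 6 genes: horizontal axis, distance in kb from the lower-coordinate end of the gene (shaded, gene span); vertical axis, Rbpj fold over local input. Squares are sites in H3K4me3 segments of fold 12.4 or more and circles are the others; Rbpj and Spen have a single dominant site of fold 28.2 and 21.9, while the sites of Ets1, Bcl11b and Thy1 stay at about 10 or below.

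Gene lists were read by the share of their genes with a Rbpj-only distal site within 50 kb of the gene span. The background was 32.1% of all 21887 coding genes. For any Rbpj peak it was 67.2%. Genes of the T-cell lineage stood highest. Of 29 T-cell receptor and surface genes, 27 had a site (interval 77.2% to 99.2%). Of 30 T-lineage transcription factors 25 did (interval 65.3% to 94.4%). Of 12 B-lineage genes 2 did (interval 2.09% to 48.4%, which included the background), namely Bank1 and Blnk with 1 site each. Of 12 myeloid genes 9 did (interval 42.8% to 94.5%). Mpo had 3 sites and Fcgr3 and Csf3r had 2 each, none of which lay inside those 3 genes. Of 30 developmental regulators 4 did (interval 3.755% to 30.7%), but the rule left out sites in Polycomb-like segments. Those segments cover an end of most genes of that list. The rule also required H3K4me1 in this T-cell leukaemia line. The order of all the lists, T-lineage and B-lineage included, therefore cannot be told apart from where these marks lie. The standing of the B-lineage and myeloid lists depended on the window. With windows of 10 kb the background was 16.1%, and 1 of 12 B-lineage and 2 of 12 myeloid genes had a site, the latter share being near the background. With windows of 200 kb the background was 58.2%, and 10 of 12 B-lineage and 11 of 12 myeloid genes did. At the same windows the T-cell surface list stood at 21 and 29 of 29, and the T-lineage factors at 18 and 30 of 30. Wider spans take in more sites, and the median span was 17.2 kb over all coding genes, 14.7 kb for the T-cell surface list and 47.1 kb for the T-lineage factors.

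All 20 housekeeping genes had a Rbpj peak of some kind within 50 kb, and 8 had a Rbpj-only distal site, with Actb at 6. The share with such a site, 8 of 20, was near the background of 32.1%. For T-cell surface genes the counts were 28 and 27 of 29, and for T-lineage factors 29 and 25 of 30. For B-lineage genes they were 10 and 2 of 12. Counted as pairs of a gene and a Rbpj peak, Rbpj-only distal sites made up 17.5% of 114 pairs for housekeeping genes, 32.5% of 246 for T-cell surface genes, 41.5% of 217 for T-lineage factors and 22.2% over all coding genes. Neighbouring genes in a list can share sites, as Cd8a and Cd8b1 do. A site within 50 kb of a listed gene can also be nearest to another gene.

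**Figure D5:**
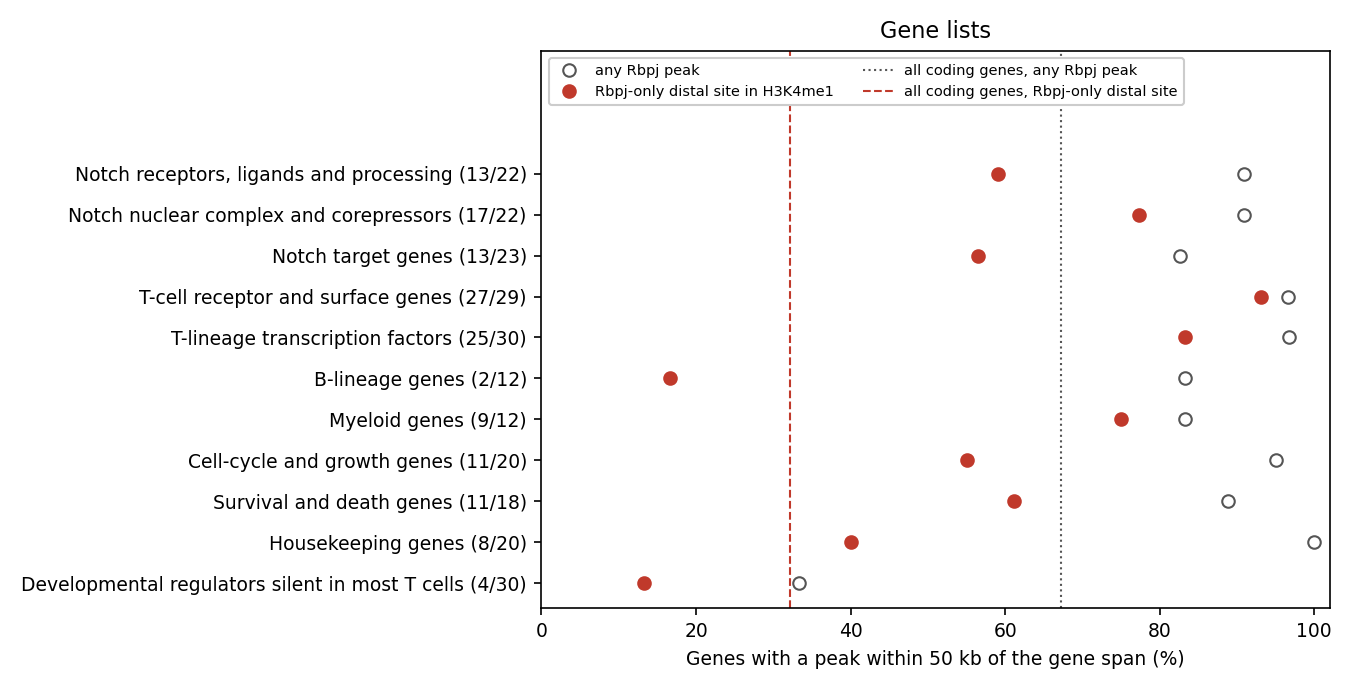
Share of the genes of 11 lists (horizontal axis, %) with a peak within 50 kb of the gene span: filled circles, Rbpj-only distal sites in H3K4me1 (counts beside the list names); open circles, any Rbpj peak. Lines mark all coding genes, at 32.1% and 67.2%; 8 of 20 housekeeping genes have a Rbpj-only distal site and all 20 a Rbpj peak, and 27 and 28 of 29 T-cell surface genes do.

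The sites occurred at genes of each step of the Notch pathway. Of 22 receptor, ligand and processing genes 13 had a site (59.1%, interval 36.35 to 79.3), against the background of 32.1%. Outside the pathway, the share ran from 13.3% of developmental regulators to 93.1% of T-cell surface genes. It was 55.0% for cell-cycle and growth genes, with an interval that included the background, and 61.1% for survival genes. Of gene and Rbpj peak pairs, the sites made up 22.55%, 29.7% and 36.8% in the receptor, nuclear complex and target lists. Over all coding genes this was 22.2%. Mfng, a glycosyltransferase that modifies Notch, and Aph1a, a subunit of gamma-secretase, each had 4, with highest Rbpj folds of 6.14 and 5.25. The ligand genes Jag2 and Dll4 each had 3, with highest folds of 8.56 and 8.50. Rfng had 1, of fold 8.72 and without either mark.

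Of 22 nuclear complex and corepressor genes 17 had a site (77.3%, interval 54.6 to 92.2). The median span of this list was 85.8 kb, against 17.2 kb over all coding genes, and wider spans take in more sites. Kat2b, an acetyltransferase, had 5 sites inside the gene with folds of 4.89 to 7.82. L3mbtl3, a chromatin reader that binds Rbpj, had 3 inside the gene, with folds of 3.22 to 6.53, and Maml3, a Mastermind coactivator, had 2 with folds of 7.23 and 8.29. These stand beside the 4 sites each of Rbpj and Spen above.

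Of 23 Notch target genes 13 had a site (56.5%, interval 34.5 to 76.8). Igf1r, the receptor for insulin-like growth factor 1, had 12 within 50 kb, 10 of them inside the gene, with folds of 3.88 to 9.01. Ccnd3, a D-type cyclin, had 7 with folds of 3.38 to 9.86, and all 7 lay in acetylation-like segments. Il7r, the interleukin-7 receptor, had 5 with folds of 3.62 to 11.9, all in both marks and 33.75 to 45.08 kb outside the gene. Each of them was nearest to another gene, Capsl or Spef2, and not to Il7r. For each the nearest HA-Zmiz1 summit was 894.3 kb or more away. Over all Rbpj-only distal sites that distance had a median of 39.8 kb, and it fell to 0.175 kb at Igf1r and 1.17 kb at Ccnd3. Il2ra and Cdkn1a had 3 each, with highest folds of 9.34 and 7.62. Hes1 and Dtx1 were among the 10 target genes with no site, named here after their values were seen. The rule leaves out Rbpj peaks at gene ends or with another factor, and 19 of the 23 target genes had a Rbpj peak of some kind within 50 kb. A gene without a site is therefore not shown to lack Rbpj.

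Among T-cell surface and signalling genes, Thy1 had 6 with folds of 3.89 to 10.1, and these fell into 2 groups. The 3 sites 30.2 to 32.3 kb below the gene lay in an H3K4me3 segment of fold 7.41, and the 3 in or within 2.86 kb of the gene in one of fold 17.1. Fyn, a Src-family kinase gene, had 6 inside the gene with folds up to 8.80, and Cd8a and Cd8b1 had 5 each with a highest fold of 7.07.

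Among T-lineage factors, Ets1, its neighbour Fli1 and Stat5b had 8 sites each, and all 8 at each gene lay in acetylation-like segments. Highest Rbpj folds were 9.93, 9.40 and 8.17. The Stat5b sites beyond its span, that of fold 8.17 included, were nearest to Stat5a or Stat3. Ets1 and Fli1 share sites that lie between them. Tcf12, an E protein, had 7 with a highest fold of 8.71. Tcf7, which encodes the T-cell factor TCF-1, had 7 with folds of 3.87 to 7.82, all in both marks.

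Genes of survival and growth had some stronger sites. Bbc3, the BH3-only death gene Puma, had 4 sites with folds of 5.38 to 14.8, the highest at the start inside the gene that is shown above. The others, 12.73 to 13.84 kb below the gene, were nearest to Ccdc9. Bcl2, an inhibitor of apoptosis, had 2 sites inside the gene with folds of 13.4 and 4.53, in an H3K4me3 segment of fold 11.1, and the nearest HA-Zmiz1 summit was 621.9 kb away or farther. Bcl2l1, which encodes Bcl-xL, had 6 with folds up to 9.34. Sites of Bcl2l1 and Bbc3 came within 0.498 and 0.559 kb of an HA-Zmiz1 summit. Casp8 had 2 with folds of 10.6 and 12.5, and its neighbour Cflar had 3. The site of fold 12.5 lay inside Gm28802, 12.46 kb outside Casp8. In these lists 11 of 18 survival genes and 11 of 20 cell-cycle and growth genes had a site, against the background of 32.1%. The interval of the cell-cycle and growth share, 31.5% to 76.9%, included this background. That of the survival share was 35.75% to 82.7%. Rptor, a subunit gene of mTORC1, had 10 sites and Mdm2, the ubiquitin ligase of p53, had 4.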

How the data were processed

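Each deposited Rbpj, Zmiz1 and ICN1 peak carries a pileup signal, a fold over local input and a −log10 p, computed by the authors against each line's own input. Per the file headers, the caller was MACS 2.0.10.20120913 (p limit 1e-05, 1 tag per position, local windows of 1000 and 10000 bp). Reads of the HA line had been pooled, per their headers. Deposited histone segments, in windows of 200 bp, give read counts for precipitation and control, a ratio (fold) and a p-value, and none has a false discovery rate above 0.001 in the authors' lists. Tools named in the submitters' processing notes are SICER 1.1, MACS2 2.0.10, HOMER 4.2, FastQC 0.10.0 and Bowtie 0.12.7, with the build mm10. Depth was that of the filtered tags in the headers.

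Overlap, distance and shares were computed here with Python 3.11.15, pandas 2.3.3, numpy 2.4.6 and scipy 1.17.1, and the overlap code was checked against bedtools 2.31.1 on simulated intervals. Gene spans, promoter windows and sequences came from RefSeq (GRCm38.p6). The 11 gene lists held 234 genes, of which 233 matched by symbol. The sites and lists were chosen with earlier results of these data known. Genes named were the nearest genes of the 15 strongest sites, the 10 nearest to most sites, up to 5 per list by sites within 50 kb, those at the 5 H3K4me1 segments with most sites, and 3 sites on each side of the 1 kb limit. Alternatives covered the overlap, the distance, the peak and segment limits, the gene table, input and neighbouring sites. No genome was used, so sequence outside promoter windows was not searched. Some items that this naming rule covers are not reported here.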

Additional observations from a re-analysis of the deposited data

How the results depend on the processing

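The number of sites, their shares in each mark and in gene spans, their median Rbpj fold and their median distance were recomputed under 9 other settings, and some of them under 4 more that were added after seeing the data. Of 60 recomputed values, 45 stayed within 1.5 times the count or within the 95% interval of the value. With Rbpj peaks at p of 1e-10 or less there were 2856 sites, 83.3% in H3K4me3, with a median fold of 7.51 and a median distance of 14.3 kb. With the upper 50% of H3K4me1 segments by fold, 91.6% were in acetylation-like segments, 86.6% in H3K4me3, and the distance was 18.1 kb. With no other factor peak within 500 bp, 80.7% were in H3K4me3. Over 5 kb from gene ends, 53.8% were inside genes and the distance was 25.8 kb. With the ends of all RefSeq genes, 58.0% were inside coding genes and the distance was 8.17 kb. Among the added settings, reading the H3K27 libraries by sample label left 1005 sites. With only the upper 50% of segments of the mark itself, 43.4% were in H3K4me3 and 67.2% in acetylation-like segments. The cause of each shift was not tested beyond what the setting itself removes. List counts stayed within 1.5 times in 13 of 24 cases with windows of 10 and 200 kb in place of 50 kb. B-lineage genes with a site went from 2 to 10 of 12 at 200 kb, and myeloid genes from 9 to 2 of 12 at 10 kb. The motif search in windows around all sites was not run. No paired analysis was possible because each target had 1 library per line. The lists of the other factors differed in length at similar depth, and the absence of a listed peak is not the absence of the factor.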

Other observations

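Noncoding genes lay close to some of the sites. A long noncoding RNA gene had an end within 1 kb of 435 Rbpj-only distal sites (7.13%, interval 6.501 to 7.81), and any RefSeq gene of the table had one within 1 kb of 544. Of 1005 microRNA hairpins, 42 (4.18%) had a site within 5 kb. The same shares over all Rbpj peaks were not computed, so these counts and those of noncoding genes have no background beside them. The highest Rbpj folds were 11.3 at Mir7671 (chr11:53763863-53764139) and 10.9 at Mir6769b. Mir21a, whose microRNA is abundant in many tumours, had a site of fold 8.04 at chr11:86581374-86581527, 2.62 kb away and in both H3K4me3 and acetylation-like segments. These hairpins were named after their values were seen.

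Chromosome 15 held 432 of the sites, 35.1% of its 1230 Rbpj peaks, and chromosome 13 held 333, or 35.5%. The other autosomes ran from 25.3% to 31.8%. Per Mb of H3K4me1 segment, chromosome 15 had 34.5 sites, within the 23.5 to 36.8 of the 18 other autosomes. Its control reads per kb of H3K4me1 segment were 32.8, above the 22.8 to 24.1 of those autosomes. Chromosome X had 13.3 control reads per kb and 64 sites, 18.6% of its 344 Rbpj peaks.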
